A study of Mus musculus with 4 samples.

Results

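The chondroitin sulfate proteoglycan and hyaluronan genes were followed in sorted tumour cells of PDGF-B-driven mouse gliomas, comparing late-onset high-grade with early-onset low-grade tumours. They were 10 genes chosen by name, Bcan, Ncan, Vcan, Acan, Cspg4, Cspg5, Ptprz1, Has2, Has3 and Cd44, out of 19937 genes with a probe set of a single symbol. Each of the 10 was represented by 1 probe set. All tumours arose in C57/Bl6 mice that had received, as embryos at embryonic day 14, a retrovirus coding for PDGF-B and EGFP, and cells positive for EGFP were sorted from the dissociated tissue. The early-onset low-grade group held 2 samples, here called pool 1 and pool 2, each mixing cells of 2 gliomas. The late-onset high-grade group held 2 samples, tumour 1 and tumour 2, each from 1 glioma. Both groups carried the same virus, so no sample without PDGF-B overexpression was compared, and the ages of the mice are not given in the sources used here.

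Chondroitin sulfate proteoglycans are core proteins that carry chains of sulfated sugars, and in the brain they fill much of the space between cells. Brevican, neurocan, versican and aggrecan form the lectican family, which binds the long sugar polymer hyaluronan at one end and tenascins at the other. Hyaluronan is made at the cell surface by hyaluronan synthases and is bound by the receptor CD44. Glial progenitors, and the tumours that resemble them, are known for NG2 (Cspg4), the receptor phosphatase PTPRZ1 and brevican at their surface or in their matrix.

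In late-onset cells 1 of the 10 genes changed. Cspg5, which codes for neuroglycan C, a membrane-spanning proteoglycan of neural cells, fell 1.67-fold. Ptprz1 and Bcan also lay lower in both late-onset tumours, and Cd44 and Acan lay higher in both, but these 4 did not pass the test. Ncan, Vcan, Cspg4, Has2 and Has3 differed by amounts whose 95% intervals included 0. By limma with Benjamini-Hochberg adjustment over all genes, at an adjusted p of 0.05, 1 member was lower and 0 were higher. Across all genes 14.7% were called, 8.12% lower and 6.59% higher, so the count among the members lay near the background. At an unadjusted limma p under 0.05, 3 members were lower and 2 higher, against 3067 and 2900 of all 19937 genes. The 2 groups did not overlap in 6 of the 10 genes, 4 lower and 2 higher, against 58.9% of all genes, 30.4% lower and 28.5% higher.

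**Figure D1:**
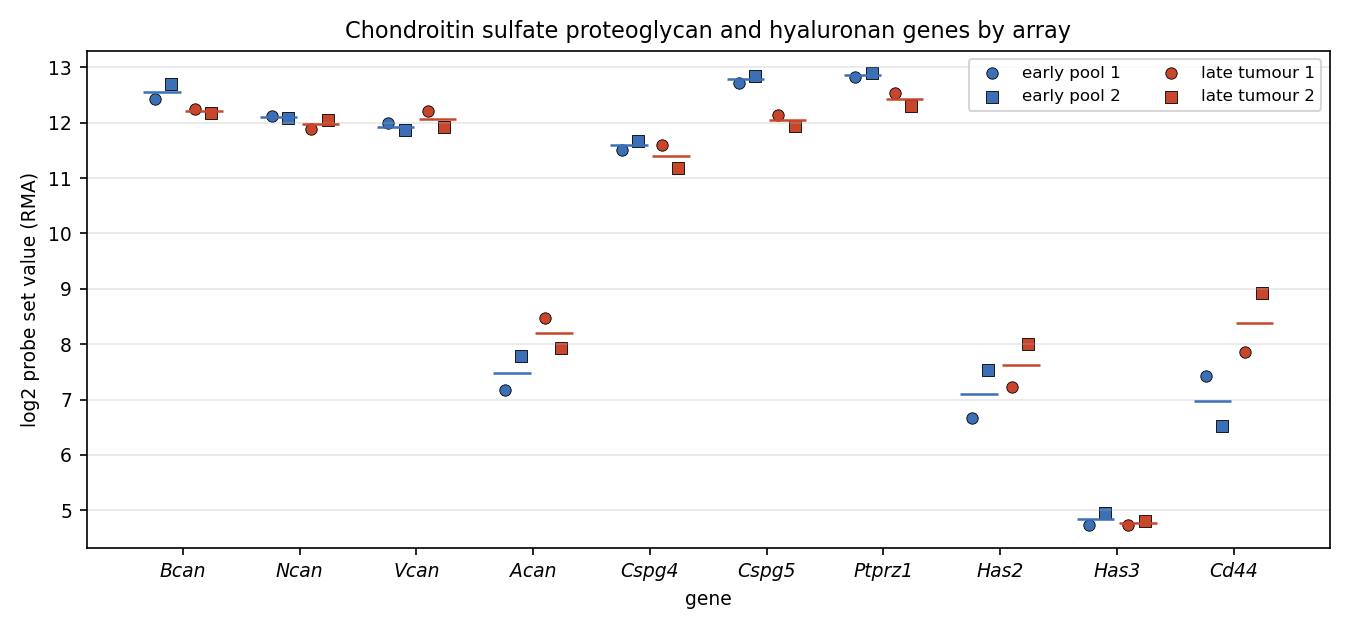
Log2 value of each gene's probe set (y axis) on the 4 arrays, with circles and squares for the samples of a group and lines for the group means. Cspg5 lies at 12.73 and 12.85 in the early-onset pools and at 12.15 and 11.95 in the late-onset tumours, while Cd44 and Has2 vary widely within each group.

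For orientation, the 250 bases before the annotated start are shown for 5 members whose groups did not overlap: Bcan, Ncan and Ptprz1, which lay lower in both late-onset tumours, and Cd44 and Acan, which lay higher in both. They come from RefSeq on GRCm38.p6, whose table held 7 of the 10 genes, and run 5′ to 3′ on the gene's strand. Cspg5, the only called member, was not among those 7, and none of the 5 genes shown passed the test. Capitals mark matches on either strand to a GC box with the letters GGGCGG, an AP-1 motif with the letters TGANTCA, an E-box with the letters CAGCTG or a promoter box with the letters TATAAA, the TATA box, with overlapping matches counted separately.
Bcan (chr3:88000357-88000606, minus strand): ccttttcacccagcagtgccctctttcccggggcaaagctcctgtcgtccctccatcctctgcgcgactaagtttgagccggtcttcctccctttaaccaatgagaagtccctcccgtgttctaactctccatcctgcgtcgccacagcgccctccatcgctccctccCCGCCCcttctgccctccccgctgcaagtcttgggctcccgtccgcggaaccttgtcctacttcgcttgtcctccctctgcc
Ncan (chr8:70120845-70121094, minus strand): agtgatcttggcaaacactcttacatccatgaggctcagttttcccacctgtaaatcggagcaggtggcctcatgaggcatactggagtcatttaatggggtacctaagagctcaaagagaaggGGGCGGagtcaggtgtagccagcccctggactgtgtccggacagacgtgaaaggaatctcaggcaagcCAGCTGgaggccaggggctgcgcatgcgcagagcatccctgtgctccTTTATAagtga
Ptprz1 (chr6:22875252-22875501, plus strand): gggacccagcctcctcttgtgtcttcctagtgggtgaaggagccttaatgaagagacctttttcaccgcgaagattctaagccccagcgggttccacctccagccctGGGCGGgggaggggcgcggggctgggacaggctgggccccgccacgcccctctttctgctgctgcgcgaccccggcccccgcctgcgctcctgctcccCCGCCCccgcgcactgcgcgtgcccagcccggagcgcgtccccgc
Cd44 (chr2:102901666-102901915, minus strand): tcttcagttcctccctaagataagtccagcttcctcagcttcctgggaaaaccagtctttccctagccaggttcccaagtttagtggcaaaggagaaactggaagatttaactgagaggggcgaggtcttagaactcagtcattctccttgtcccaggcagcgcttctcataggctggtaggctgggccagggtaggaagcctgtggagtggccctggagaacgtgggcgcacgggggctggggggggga
Acan (chr7:79052976-79053225, plus strand): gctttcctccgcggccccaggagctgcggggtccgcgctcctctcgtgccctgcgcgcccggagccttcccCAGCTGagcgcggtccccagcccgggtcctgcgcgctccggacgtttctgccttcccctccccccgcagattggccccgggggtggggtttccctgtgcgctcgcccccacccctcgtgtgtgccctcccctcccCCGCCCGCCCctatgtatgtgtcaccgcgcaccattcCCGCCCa
The Bcan window held 1 GC box and 16 CpG dinucleotides, and the Ptprz1 window held 2 GC boxes and 22 CpG dinucleotides. The Ncan window held 1 GC box, 1 TATA box, 1 E-box and 6 CpG dinucleotides. The Cd44 window held 5 CpG dinucleotides and none of these 4 motifs by these letters, while the Acan window held 3 GC boxes, 1 E-box and 26 CpG dinucleotides. Of 32851 windows of this length in the table, 32.7% held the GC box, 12.4% the TATA box, 6.75% the AP-1 motif and 13% the E-box. The median over those windows was 6 CpG dinucleotides. The arrays measured transcripts, and no binding or methylation at these windows was measured.

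The membrane-bound proteoglycans lay lower or level. Cspg5 stood at 12.73 in pool 1, 12.85 in pool 2, 12.15 in tumour 1 and 11.95 in tumour 2, as log2 probe set values. Both tumours were lower than both pools, and the gap between the groups was larger than the spread within either. Its log2 fold change, late-onset minus early-onset, was -0.74 (SE 0.12, 95% interval -1.04 to -0.44), with a limma adjusted p of 0.0177. It did not pass with the replicate number as a block in the fit (limma adjusted p 0.0523). The call was lost when pool 1 (adjusted p 0.077) or pool 2 (0.117) was left out, with the lone pool then assumed to vary like the tumours, and the log2 fold change was -0.80 and -0.68. Without tumour 1 or tumour 2 it was -0.84 and -0.64, and the call was kept (adjusted p 0.023 and 0.0469).

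Ptprz1, whose product is a receptor-type tyrosine phosphatase and carries chondroitin sulfate, stood at 12.84 and 12.89 in the pools and at 12.54 and 12.31 in the tumours. The groups did not overlap. Its log2 fold change was -0.44 (SE 0.12, 95% interval -0.74 to -0.13), and its limma adjusted p was 0.0721. It passed with an intensity trend in the variance model (adjusted p 0.0387), among genes above the median level (0.0493) and after cyclic loess (0.0429, log2 fold change -0.59). Leaving out 1 sample gave an adjusted p from 0.0514 without tumour 1 to 0.299 without pool 2.

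Cspg4, which codes for NG2, a marker of oligodendrocyte progenitors and also of pericytes, stood at 11.51 and 11.67 in the pools. Tumour 1, at 11.61, lay between the pools, and tumour 2, at 11.19, lay below them. Late-onset minus early-onset, this came to -0.19 (SE 0.17, 95% interval -0.62 to 0.23, limma adjusted p 0.506). Without tumour 2 it was 0.014, so the difference rested on tumour 2. It was -0.40 without tumour 1, -0.12 without pool 2, and -0.32 after both quantile normalization and cyclic loess.

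None of the 4 lecticans passed the test. Bcan, which codes for brevican, the lectican most typical of the adult brain, stood at 12.42 and 12.71 in the pools and at 12.25 and 12.18 in the tumours. The tumours were nearly level with each other and below both pools, but pool 1 lay closer to tumour 1 than to pool 2. The log2 fold change was -0.35 (SE 0.13, 95% interval -0.68 to -0.02, limma adjusted p 0.146), and it was -0.21 without pool 2, against -0.50 without pool 1.

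Ncan, for neurocan, stood at 12.12 and 12.08 in the pools and at 11.89 and 12.05 in the tumours. Tumour 2 lay only just below the pools. The log2 fold change was -0.13 (SE 0.11, 95% interval -0.40 to 0.14, limma adjusted p 0.481). It was -0.054 without tumour 1 and -0.21 without tumour 2, and among the scalings it was -0.073 with array medians subtracted, -0.26 under quantile normalization and -0.27 under cyclic loess.

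Vcan, for versican, a large lectican of developing tissue, stood at 11.995 and 11.87 in the pools and at 12.21 and 11.93 in the tumours. Tumour 1 was the highest of the 4, and tumour 2 lay between the pools. Versican's log2 fold change was 0.14 (SE 0.13, 95% interval -0.20 to 0.48, limma adjusted p 0.550). It was 0.0015 without tumour 1, 0.28 without tumour 2 and 0.077 without pool 2, and 0.0093 after quantile normalization and 0.0039 after cyclic loess.

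Acan, for aggrecan, the main proteoglycan of cartilage and of perineuronal nets, stood at 7.17 in pool 1, 7.78 in pool 2, 8.47 in tumour 1 and 7.94 in tumour 2. Both tumours were above both pools, though tumour 2 lay close to pool 2. For aggrecan the log2 fold change was 0.73 (SE 0.27, 95% interval 0.05 to 1.40, limma adjusted p 0.143), and it ranged from 0.42 without pool 1 to 1.03 without pool 2.

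Of the hyaluronan genes, Cd44 had the largest fold change among the 10 genes. It stood at 7.43 in pool 1, 6.52 in pool 2, 7.86 in tumour 1 and 8.92 in tumour 2. Tumour 2 was highest, by 1.07 over tumour 1, and tumour 1 lay closer to pool 1 than to tumour 2. The log2 fold change was 1.42 (SE 0.44, 95% interval 0.30 to 2.54), a 2.67-fold higher mean, with a limma adjusted p of 0.0988. It was 0.88 without tumour 2 (adjusted p 0.232), 0.96 without pool 2 (0.357) and 1.87 without pool 1 (0.112), and without tumour 1 it was 1.95 and passed (0.0417). Which CD44 splice forms were present cannot be read from 1 probe set.

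Has2, the synthase that makes long hyaluronan chains, stood at 6.67 and 7.54 in the pools and at 7.22 and 8.01 in the tumours. Tumour 1 lay between the pools, so the groups overlapped. The log2 fold change was 0.51 (SE 0.37, 95% interval -0.44 to 1.46, limma adjusted p 0.435). It was 0.07 without pool 1 and 0.12 without tumour 2, against 0.95 without pool 2 and 0.90 without tumour 1.

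Has3, another synthase, stood at 4.73 and 4.95 in the pools and at 4.73 and 4.81 in the tumours. These values lay under the lower quartile of gene means, 5.52, where array signal is dim and a fold change is understated. Its log2 fold change was -0.07 (SE 0.12, 95% interval -0.37 to 0.23, limma adjusted p 0.748), and it ranged from -0.18 without pool 1 to 0.036 without pool 2.

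**Figure D2:**
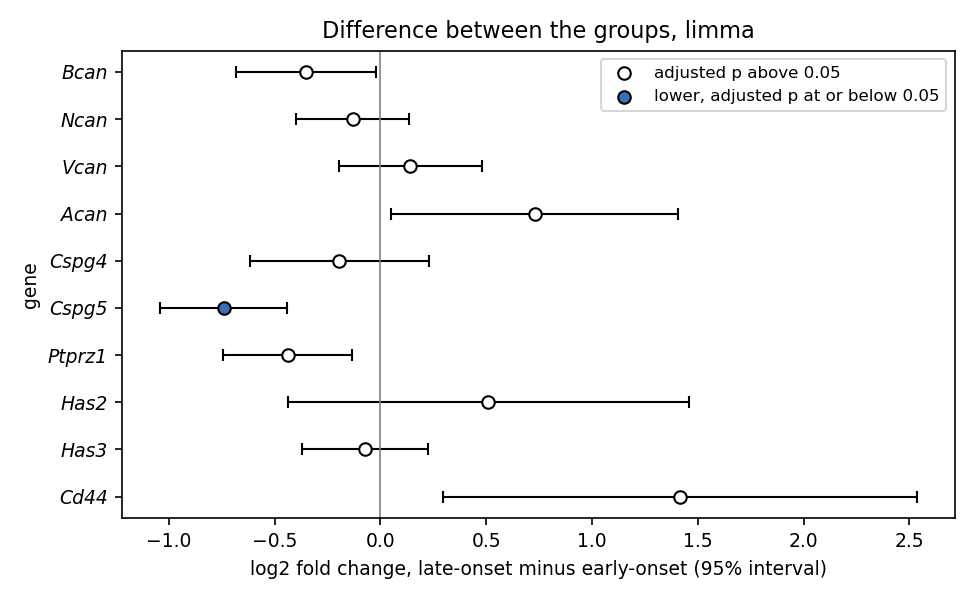
Log2 fold change of each gene (x axis), late-onset minus early-onset, with bars for the 95% interval of the limma fit. The interval of Cspg5 runs from -1.04 to -0.44 and is the only one with an adjusted p at or below 0.05, and those of Has2 and Cd44 are the widest.

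The spread within the groups differed between the genes. In Acan, Has2 and Cd44 the pools differed by 0.61 to 0.91 and the tumours by 0.53 to 1.07 on the log2 scale. In the other 7 genes the pools differed by 0.04 to 0.29 and the tumours by 0.06 to 0.42. Over all genes the median gap was 0.12 between the pools and 0.14 between the tumours, and the 90th percentile was 0.33 and 0.41. Cd44, Has2 and Acan thus lay beyond the usual spread in both groups, and their intervals were the widest of the 10.

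By Euclidean distance over the 4 arrays, each gene centred on its own mean, the 5 genes nearest to Cd44 were Angpt2 (0.27), Ajap1 (0.32), Slc38a4 (0.37), Anxa2 (0.38) and Slc2a1 (0.40). Of these, Ajap1 (log2 fold change 1.66, limma adjusted p 0.0398) and Slc2a1 (1.30, 0.0451) rose. Ajap1, whose product is a membrane protein of cell junctions, lost its call without pool 1 (adjusted p 0.0597), pool 2 (0.164) or tumour 2 (0.0902). Slc2a1, for the glucose transporter GLUT1, lost its own without pool 1 (0.0503), pool 2 (0.16) or tumour 2 (0.119), after cyclic loess (0.0526) and after quantile normalization (0.0522), and both did so with robust eBayes (0.0558 and 0.0516). Angpt2 stood at 1.30 (adjusted p 0.0878), Slc38a4 at 1.40 (0.162) and Anxa2 at 1.36 (0.0585), and without pool 1 Anxa2 passed (1.83, 0.0409). With the replicate number as a block, Ajap1 (limma adjusted p 0.0997) and Slc2a1 (0.106) also lost their calls. The 5 genes were chosen for likeness on the same 4 arrays, so their shared order of samples follows from the choice.

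**Figure D3:**
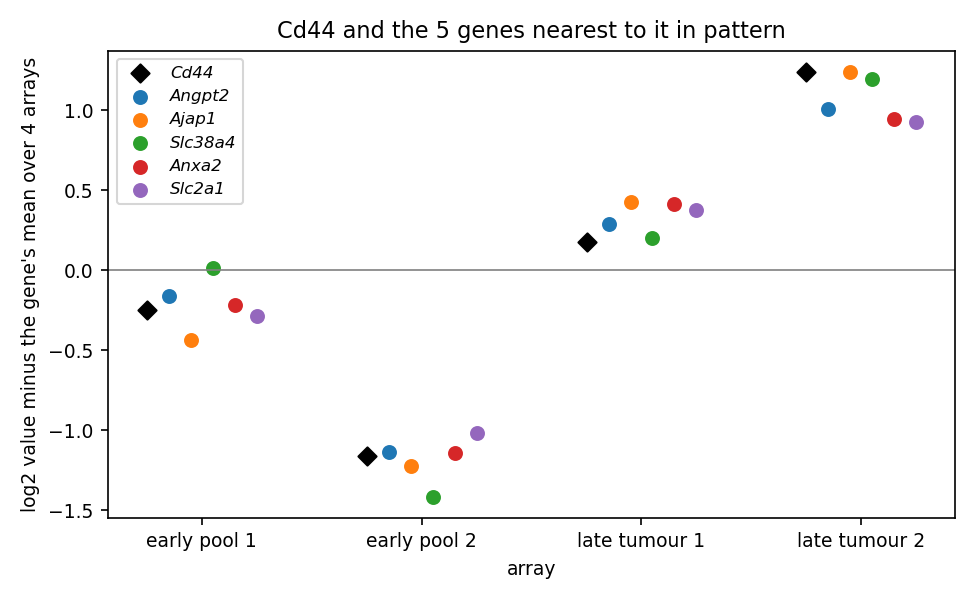
Log2 value minus the gene's own mean over the 4 arrays (y axis) for Cd44, black diamonds, and the 5 genes nearest to it, coloured circles, on each array (x axis). The 5 genes lie at a distance of 0.27 to 0.40 from Cd44 and were chosen for that likeness.

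Around these 10 genes, 114 further gene symbols of chondroitin sulfate, hyaluronan and their partners were listed in 10 groups, of which 110 were measured. One symbol without a match, Tmem2, is an older name of Cemip2, which was measured. By limma 33 of them were called, 19 higher and 14 lower, or 30% against 14.7% of all genes. That background includes dim genes. With only genes above the median level tested, 2753 of 9968 were called. The 30% counts the dim genes of the lists too, so it is not matched to that share. The lists were chosen with earlier results of these data known, so no enrichment is read from the 30%. None of the 33 changed direction in any of the 15 alternative settings, but 21 lost their call when a pool was left out, and 12 kept it in every setting that tested them. The 12 were Tnfaip6, Fbln1, Spock1, Spock2, Sdc1, Gpc5, Chst7, Cemip2, Hmmr, Stab1, Rtn4rl1 and Iqgap1. With the replicate number as a block, calls were lost for Hapln2, Hapln4, Tnc, Srgn, Sdc3, Gpc1, Fam20b and Chpf. The same setting removed those of Slc26a2, Gnpnat1, Pgm3, Hyal2, Hexa, Mmp14 and Ptprd. The paragraphs on each list leave that setting out.

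**Figure D4:**
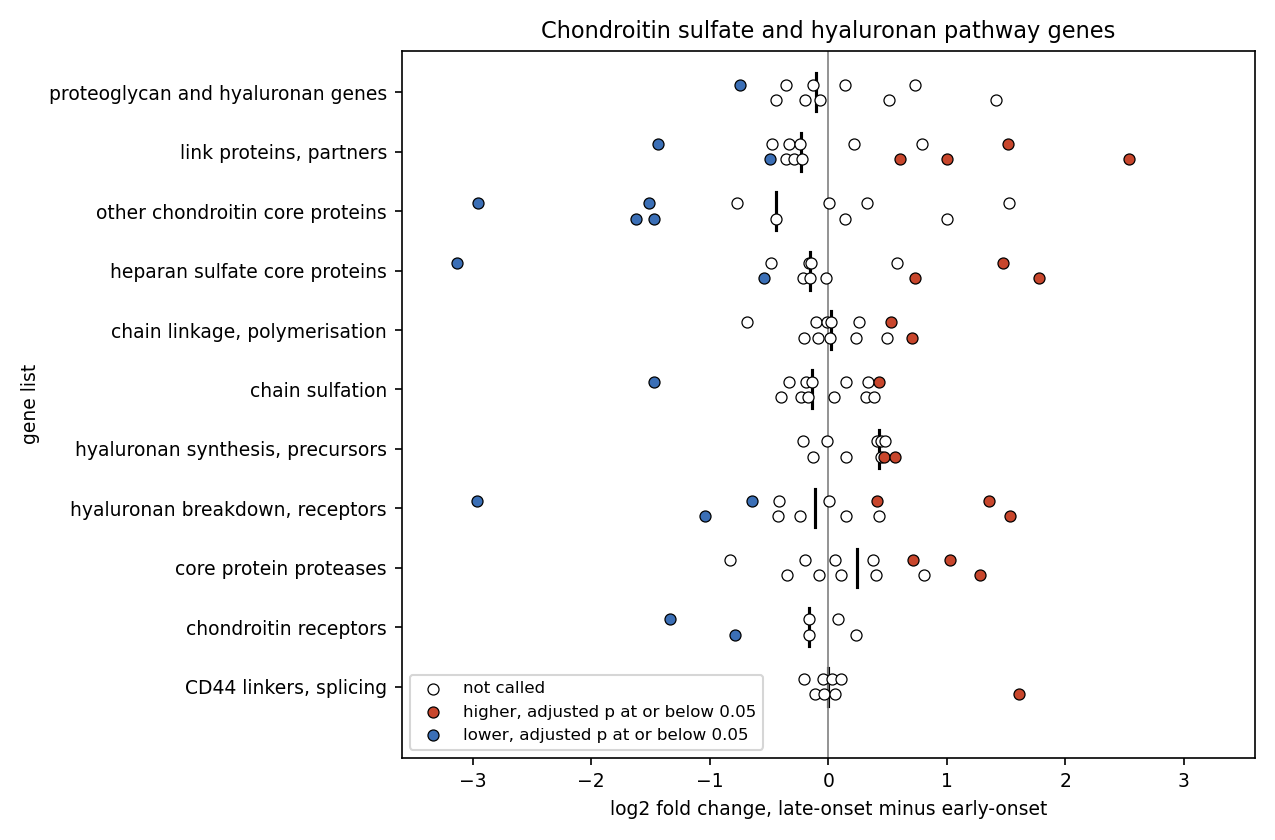
Log2 fold change, late-onset minus early-onset (x axis), of each measured gene in the proteoglycan and hyaluronan set and in the 10 lists around it (y axis), with red for higher, blue for lower, white for not called and a black bar for the list's median. Proteoglycan cores spread from -3.14 (Gpc5) to 1.78 (Sdc1), while genes of chain linkage and polymerisation stay between -0.69 and 0.71.

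Among link proteins and binding partners of the lecticans, 4 of 14 rose and 2 fell, at a median of -0.23 against -0.01 over all genes. Tnc, for the lectican ligand tenascin-C, rose by 2.54, from 8.64 and 7.40 in the pools to 10.04 and 11.08 in the tumours. Fbln1, for fibulin-1, rose by 1.52, Mdk, for midkine, a growth factor that binds chondroitin sulfate, by 1.00, and the link protein gene Hapln4 by 0.61. Tnfaip6, whose product modifies hyaluronan in inflammation, fell by 1.44, from 10.58 and 10.25 to 9.12 and 8.84, and the link protein gene Hapln2 fell by 0.49. Limma adjusted p for these 6 ranged from 0.00477 (Fbln1) to 0.0493 (Hapln2). Hapln2 lost its call in 9 of 14 alternatives, among them without pool 1 (adjusted p 0.216), pool 2 (0.195) or tumour 1 (0.112). Hapln4 lost it without pool 1 (0.0948), pool 2 (0.165) or tumour 2 (0.0767), Mdk without pool 1 (0.112), pool 2 (0.0571) or tumour 2 (0.0677). For Tnc the call was lost with robust eBayes (0.0599) and when pool 2 (0.113) or tumour 2 (0.0779) was absent.

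Among 11 other chondroitin sulfate core protein genes, 4 fell and the other 7 did not pass, at a median of -0.44. The testican genes Spock2 (-1.62), Spock3 (-1.51) and Spock1 (-1.47) fell, and Spock2 went from 11.35 and 11.44 to 9.96 and 9.58. Srgn, for serglycin, the proteoglycan of blood cell granules, fell by 2.95, from 11.10 and 10.29 to 6.82 and 8.66. Limma adjusted p for the 4 ranged from 0.00475 (Spock1) to 0.0377 (Srgn). Spock3 lost its call without pool 1 (0.0949) or pool 2 (0.0571), and Srgn without pool 1 (0.165) or pool 2 (0.109) and with robust eBayes (0.0835). Dcn, for decorin, and Bgn, for biglycan, small proteoglycans of connective tissue, stood high in tumour 2 only. Dcn was at 5.84 and 6.34 in the pools, 4.96 in tumour 1 and 9.23 in tumour 2, and Bgn at 7.17, 6.93, 7.29 and 9.86. Their log2 fold changes were 1.01 (limma adjusted p 0.68) and 1.52 (0.278). Without tumour 1 both were called higher, Dcn at 3.14 (0.00538) and Bgn at 2.81 (0.00364). Without tumour 2 Dcn was called lower, at -1.13 (0.0483), and Bgn stood at 0.24. Dcn and Bgn were chosen after their values were seen.

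Heparan sulfate proteoglycan genes moved both ways, with 3 of 12 higher and 2 lower, at a median of -0.15. The cell surface core Sdc1, for syndecan-1, rose by 1.78 and the basement membrane core Hspg2, for perlecan, by 1.47, and Gpc1 rose by 0.73. Gpc5 fell by 3.14, from 10.12 and 10.38 to 7.28 and 6.94, and Sdc3, for the neural syndecan-3, fell by 0.54. Limma adjusted p ranged from 0.0019 (Gpc5) to 0.0449 (Gpc1). Hspg2 lost its call without pool 1 (0.0732) or pool 2 (0.0791), Sdc3 without pool 1 (0.123), pool 2 (0.169) or tumour 1 (0.0705), and Gpc1, for glypican-1, under both quantile normalization (0.0666) and cyclic loess (0.0676) and when pool 1 (0.202), pool 2 (0.127) or tumour 1 (0.087) was left out.

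Of 12 genes of chain linkage and polymerisation 2 rose, at a median of 0.02. They were Fam20b (0.71, limma adjusted p 0.0368), for a kinase of the linkage sugar, and Chpf (0.53, 0.0287), for a chondroitin polymerising factor. Both lost their calls without pool 1 (0.149 and 0.154), pool 2 (0.181 and 0.147) or tumour 1 (0.0584 and 0.0722), and Fam20b also under cyclic loess (0.0648) and quantile normalization (0.0606). Of 13 genes of chain sulfation 1 rose and 1 fell, at a median of -0.14. Chst7, for a chondroitin 6-sulfotransferase, fell by 1.47, from 7.81 and 7.98 to 6.25 and 6.59 (limma adjusted p 0.00608). The sulfate transporter gene Slc26a2 rose by 0.43 (0.0437), and its call was lost when any 1 of the 4 samples was left out (0.0829 to 0.216) and with an intensity trend (0.0553).

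On the hyaluronan side, 2 of 10 genes of synthesis and sugar precursors rose, at a median of 0.43. They were Gnpnat1 (0.57, limma adjusted p 0.0286) and Pgm3 (0.47, 0.0339), for enzymes on the route to UDP-N-acetylglucosamine, a building block of hyaluronan and of other glycans. Ugdh, for the enzyme that makes UDP-glucuronate, the other building block, stood at 0.48 (0.053) and passed in 4 alternatives, with adjusted p from 0.0267 to 0.0474, a gene chosen after its value was seen. The calls of Gnpnat1 and Pgm3 were lost without pool 1 (0.129 and 0.173), pool 2 (0.167 and 0.171) or tumour 2 (0.0774 and 0.0937). With every probe set tested, another probe set of Gnpnat1 stood at 0.41 and did not pass (limma adjusted p 0.104). Pgm3 lost its call without tumour 1, where its log2 fold change was 0.51, and after cyclic loess (0.0506).

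Among 12 genes of hyaluronan breakdown and receptors, 3 rose and 3 fell, at a median of -0.11. Cemip2, for a cell surface protein tied to hyaluronan breakdown, rose by 1.54, from 6.70 and 6.52 to 7.94 and 8.36. Hmmr, for the hyaluronan-binding protein RHAMM, which also acts at the mitotic spindle, rose by 1.36, from 7.95 and 8.05 to 9.38 and 9.33. The hyaluronidase gene Hyal2 rose by 0.42. Stab1, for a scavenger receptor of macrophages that can bind hyaluronan, fell by 2.96, and the lysosomal enzyme genes Gusb and Hexa fell by 1.04 and 0.64. Limma adjusted p for these 6 ranged from 0.00285 (Stab1) to 0.0463 (Hyal2). The Hyal2 call was lost when any 1 sample was left out (0.0825 to 0.213) and with an intensity trend (0.0598), Hexa without pool 1 (0.176), pool 2 (0.115) or tumour 1 (0.0813), and Gusb without pool 1 (0.0711).

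Among 12 genes of proteases that cut lecticans or CD44, 3 rose and the other 9 did not pass, at a median of 0.24. With every probe set tested, these genes had 17, several sharing a gene, and 7 were higher and 0 lower, at a median of 0.51. Over all probe sets with 1 symbol, 1466 of 21640 were then higher. Mmp14, for a membrane protease that sheds CD44, rose by 1.28, from 10.16 and 10.13 to 11.03 and 11.82. Adamts4 and Adamts9, for proteases that cut lectican cores, rose by 1.03 and 0.72. Limma adjusted p was 0.0345 for Mmp14, 0.0102 for Adamts4 and 0.0413 for Adamts9. With pool 1 or pool 2 left out, calls were lost for Mmp14 (0.139 and 0.159), Adamts4 (0.0653 and 0.0587) and Adamts9 (0.191 and 0.14), and Adamts9 lost its own also without tumour 2 (0.082) and after cyclic loess (0.056).

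Of 6 genes of chondroitin sulfate receptors and their relatives, 2 fell, at a median of -0.16. Rtn4rl1, for a Nogo receptor family member, fell by 1.34 (limma adjusted p 0.00458), and Ptprd, for a receptor phosphatase, fell by 0.79 (0.038), a call lost without pool 1 (0.167), pool 2 (0.164) or tumour 2 (0.0548). Of 8 genes for proteins that tie CD44 to the cell cortex or shape its splicing, 1 rose. Iqgap1, for a scaffold protein that binds CD44, rose by 1.61, from 9.21 and 8.63 to 10.60 and 10.47 (limma adjusted p 0.0103).

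Markers of the cell types that the sort could hold moved with some of these genes. The glial progenitor genes Olig2 and Sox10 stood between 11.49 and 12.12 on all arrays (both chosen after their values were seen). Over 11 glial progenitor markers 4 fell and the other 7 did not pass, at a median of -0.47, and their summed linear value was 53431 and 55033 in the pools and 39904 and 39945 in the tumours. In that list Neu4 (-1.81, limma adjusted p 0.0544) and Rlbp1 (-0.85, 0.0208) had the largest fold changes. The calls were lost without pool 1 or without pool 2, where calls over all genes were also fewest. The list's median was -0.54 without pool 1, -0.40 without pool 2, -0.47 without tumour 1 and -0.46 without tumour 2. With all arrays kept, the number of these markers called was 8 with an intensity trend, 7 after cyclic loess, and 6 with array weights and among genes above the median level. Rlbp1 kept its call in every setting with all arrays kept. Its log2 fold change was -0.83 without pool 1 and -0.88 without pool 2. Neu4 passed with an intensity trend (adjusted p 0.0499), array medians subtracted (0.0493) and array weights (0.0433). It also passed among genes above the median level (0.0414) and with the replicate number as a block (0.0489). In the other settings with all arrays kept, Neu4 did not pass. Neu4 stayed lower with either tumour left out. The fall of Cspg5 and the lower Ptprz1 and Bcan values lay beside these values, and their part in them was not tested. In bulk cells, fewer cells of a type and less RNA per cell cannot be told apart.

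Of 15 microglia and macrophage markers, 14 fell, at a median of -3.68, and Tmem119, named here after its value was seen, did not pass (-1.13, limma adjusted p 0.0688). Itgam (-4.23) and Csf1r (-4.11) had the largest fold changes. Without pool 1 or pool 2, 13 of the 15 were called, and without tumour 1 all 15 were. The summed value ran from 27316 to 30961 in the pools and from 1826 to 2790 in the tumours, with every one of the 15 genes lower in both tumours. Macrophages also express Cd44, Srgn, Stab1, Tnfaip6 and lysosomal enzymes. Cd44 lay higher in the tumours, where these markers were at their lowest, and Srgn, Stab1, Tnfaip6, Gusb and Hexa fell alongside them, and the part of these cells in either was not tested.

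Connective tissue markers stood apart in tumour 2. Over 6 fibroblast markers the summed value was 1344 and 1076 in the pools, 814 in tumour 1 and 5023 in tumour 2, and over 10 pericyte and smooth muscle markers it was 866, 787, 830 and 2403. Lum and Col1a2, at log2 fold changes of 2.00 and 1.29, and Acta2 and Tagln, at 1.60 and 1.02, differed most, and none of these 4 passed (limma adjusted p 0.288 to 0.417). Of the 6 fibroblast markers limma called 0, and 0 had an unadjusted p under 0.05. Without tumour 1 it called 5 of the 6 higher, at a median of 2.53, and without tumour 2 it called 0, at a median of -0.16. Of the 10 pericyte and smooth muscle markers 1 fell, Rgs5 (-0.56, limma adjusted p 0.0325), a gene chosen after its value was seen, and its call was lost when any 1 sample was left out (0.0533 to 0.172). Without tumour 1, 3 of the 10 were called higher and 0 lower, with Acta2 at 3.04 (adjusted p 0.00364) and Pdgfrb, likewise named after its value was seen, at 1.49 (0.0077). Tagln was the other of the 3 (0.00752). Without tumour 2, limma called 0 of the 10. The high values of Cd44, Has2, Dcn, Bgn and Tnc in tumour 2 stood beside them, and the part of such cells was not tested. Without tumour 2, Cd44 stood at 0.88 and Has2 at 0.12. Cspg4, itself a pericyte gene, was at its lowest in tumour 2, where these markers were highest. What such cells added to the Cspg4 value was not tested.

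Over 8 endothelial markers the summed value was 1279 and 838 in the pools and 680 and 1153 in the tumours. Pool 1 and tumour 2 were the higher samples of their groups, as they were for Cd44. Tumour 1 had the lowest endothelial sum but a higher Cd44 value than either pool. The part of such cells in the Cd44 value was not tested. Kdr (-0.81) and Pecam1 (-0.71) differed most, and limma called 0 of the 8, also at an unadjusted p under 0.05. Without tumour 2, Kdr was called lower (-1.35, adjusted p 0.0399). Over 8 astrocyte markers 3 fell and the summed value was 11097 and 13458 in the pools and 6249 and 6811 in the tumours, with Gja1 (-2.11, limma adjusted p 0.119) and Slc1a2 (-1.93, 0.00303) leading. With a sample left out, calls among the 8 were fewest without pool 2, where calls over all genes were also fewest. The list's median log2 fold change ran from -0.78 without tumour 1 to -1.51 without tumour 2. Gja1 was called on leaving out either tumour, at -0.98 (adjusted p 0.0492) without tumour 1 and -3.23 (0.00421) without tumour 2. Of 8 neuron markers 5 fell and 1 rose, led by Tubb3 (1.86) and Snap25 (-1.85). Their summed value ran the other way from most of the genes, at 2513 and 2650 in the pools and 3036 and 2893 in the tumours. Fewer neuron markers were called lower without pool 1, pool 2 or tumour 1, and calls over all genes were fewer there too. Their median log2 fold change was -1.23 without pool 1, -0.74 without pool 2 and -0.77 without tumour 1. Snap25 lost its call without pool 2, at -1.70. Of 7 oligodendrocyte markers 2 fell and 1 rose, led by Mobp (-2.62) and Mbp (-1.45), and both calls were lost without pool 1 (0.108 and 0.061) or pool 2 (0.137 and 0.0983), and that of Mobp with robust eBayes (0.0504). The oligodendrocyte sum was 6892 and 10096 in the pools and 6148 and 7467 in the tumours. Of 7 monocyte and granulocyte markers 1 fell, Csf3r (-1.84), with Ccr2 at -0.39 (adjusted p 0.13), and of 10 T, NK and B cell markers 1 fell, Cd4 (-0.44), with Cd79b at -0.43 (0.104). The Cd4 call was lost when any 1 sample was left out (0.0824 to 0.21), after cyclic loess (0.0509) and with array medians subtracted (0.0624). Their sums were 398, 403, 209 and 248 for the first and 436, 419, 396 and 381 for the second, in the order pool 1, pool 2, tumour 1 and tumour 2. Both lists were dim, with 5 of 7 and 7 of 10 genes under the lower quartile of gene means.

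**Figure D5:**
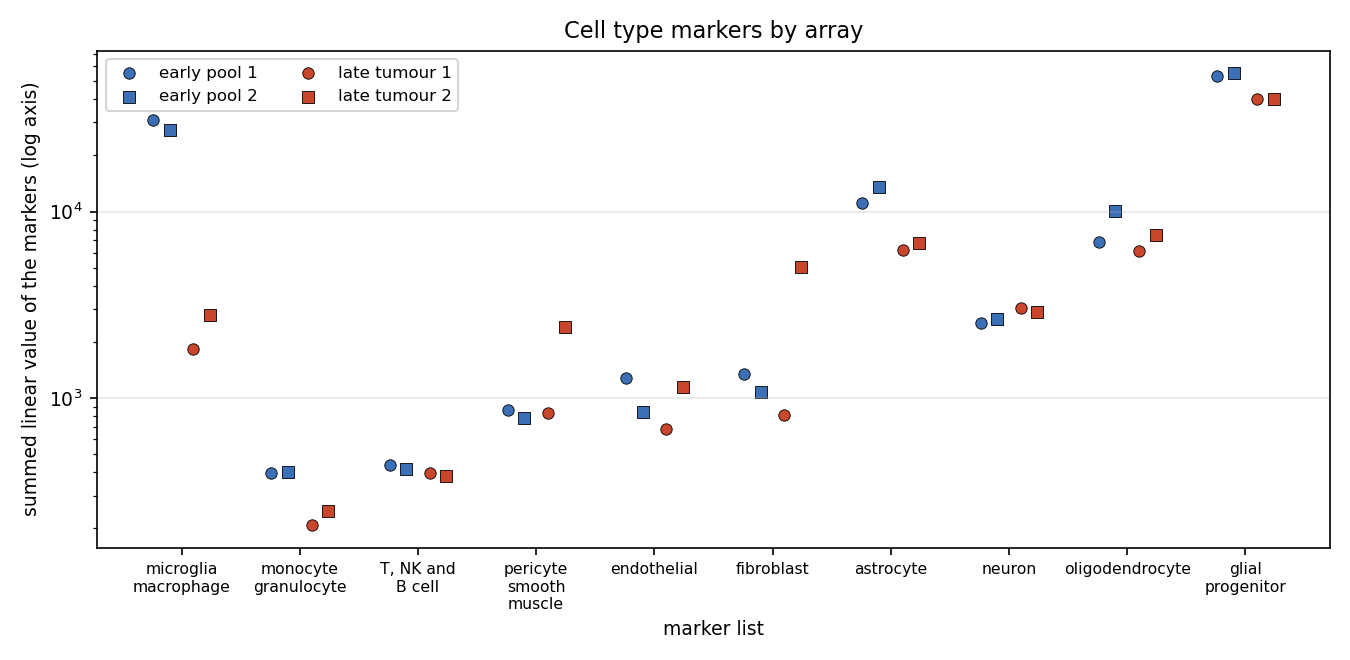
Summed linear value of each cell type's markers (y axis, log axis) on the 4 arrays, with circles and squares for the samples of a group. Microglia and macrophage markers sum to at least 27316 in the pools and at most 2790 in the tumours, and fibroblast markers reach 5023 in tumour 2 alone.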

How the data were processed

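Sorted glioma cells were hybridised to 4 Affymetrix mouse arrays. The authors deposited 1 log2 value per probe set and array, made by RMA with affy 3.4.2 per the submitters' processing notes. Its parameters and the genome build were not given in the sources used here. RMA is made to bring all arrays to a common distribution, which hides a shift common to most genes and compresses differences of dim ones. The deposited columns still differed, with medians of 6.71 and 6.70 in the pools and 6.66 and 6.63 in the tumours. Further quantile normalization moved the log2 fold change of Bcan from -0.35 to -0.47, Vcan from 0.14 to 0.0093 and Cd44 from 1.42 to 1.44. Precision is limited by the number of arrays, 2 in each group. Per the labels, samples of a group are biological replicates, whose replicate numbers only name them.

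Gene symbols came from the platform's annotation. Of 34760 probe sets, 21640 had 1 symbol, 1321 several and 11799 none, and only the first were used, with the brightest probe set standing for a gene. The 19937 genes were tested, late-onset minus early-onset, by lmFit and eBayes of limma 3.58.1 (R 4.3.3), with no further scaling or filtering. Calls used a Benjamini-Hochberg adjusted p of 0.05 over all genes, and every adjusted p is from limma. Exact permutation of 2 against 2 cannot go below p = 0.333. Correlations over probe sets were 0.992 for the pools, 0.988 for the tumours and at most 0.974 across groups.

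The 10 genes and the lists were chosen with earlier results of these data known. The text names every member, every called gene of a pathway list, the 2 markers of each cell type with the largest fold change and the 5 genes nearest to Cd44 in pattern, and a gene outside this rule is marked as picked with its value in view. Alternatives covered the variance model, filters, scaling, probe set choice, array weights, a replicate block and each sample left out in turn.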

Additional observations from a re-analysis of the deposited data

How the results depend on the processing

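Of 15 alternatives, 11 kept all 4 arrays. In these 11 the members called lower numbered 1, except for 0 with the replicate number as a block and 2 in 3 settings. The 3 were an intensity trend, genes above the median level and cyclic loess, where Ptprz1 joined Cspg5. Leaving out each sample in turn gave 0 to 1 lower and 0 to 1 higher, the latter being Cd44 without tumour 1. Calls over all genes numbered 2931, and 850 to 2577 when a sample was left out, lowest without pool 2 (850) and pool 1 (943). With the replicate number as a block, 0 members were lower, Cspg5 had an adjusted p of 0.0523 and 1833 genes were called. The marker calls of Rgs5 (limma adjusted p 0.078) and Cd4 (0.0834) were lost there too. The replicate numbers only name samples, and the differences between replicates 1 and 2 correlated at r = -0.04 across genes between the groups. Direction changed in 2 cases, neither called: Has3 at 0.036 (adjusted p 0.927) without pool 2, in a range from -0.18 to 0.036 over left-out samples, and Cspg4 at 0.014 (0.963) without tumour 2, in a range from -0.40 to 0.014. Ncan, Vcan, Cspg4 and Has3, none of them called, also moved by over 1.5 times under a scaling alternative. Has3 was not tested under either filter on dim genes, nor Has2 among genes above the median. The lone sample of a reduced group was assumed to vary like the other group, and the cause of each move beyond the smaller number of samples or genes was not tested.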
